A study of Mus musculus with 67 samples.

Results

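Mouse transcripts that carry only a provisional symbol, Gm followed by digits or a clone name ending in Rik, and that were present in control 2-cell embryos and low at every later control stage were examined. Of 26414 genes in the deposited table, 8998 had such a symbol, not counting Gm42418, which holds ribosomal RNA reads. A mean of at least 10 deposited units over the control 2-cell libraries was reached by 1053 of them. These were ranked by the log2 ratio of the control 2-cell mean to the highest mean of the other 4 control stages, with 1 added to each, and the first 150 were taken. The 150 comprised 123 Gm and 27 Rik symbols. Because control libraries chose them, their levels over the control stages and all values of light against control are given as a description. The tests of stages were run among light libraries, which the choice did not use. The last transcripts inside the limit, Gm44113 and Gm48306, had log2 ratios of 3.59 and 3.58, and the first outside it, Gm26870 and Gm29016, both had 3.57.

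RNA was read in 67 single-cell libraries of C57BL/6 mouse embryos, made by SMART-seq2, a method that amplifies full-length cDNA of one cell. The embryos came from in vitro fertilization, with eggs of females aged 6 weeks and sperm of males aged 10 weeks. Embryos of the light group received 5000 lx during 6 h as 2-cell embryos and were in darkness from then on, and those of the control group received none. Control libraries numbered 7 (2-cell), 6 (4-cell), 4 (8-cell), 13 (morula) and 3 (blastocyst), and light libraries 6, 8, 8, 6 and 6 in that order. The labels number an embryo in each group and the methods describe cells picked after dissociation, so p-values measure the spread between these libraries, and whether any of them came from the same embryo was not tested. Oocytes and zygotes were not analysed here, so that RNA inherited from the oocyte and RNA made by the 2-cell embryo cannot be told apart.

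In the mouse, the first cell cycles take place on RNA and protein stored in the oocyte. Most of this maternal RNA is degraded by the end of the 2-cell stage, while the embryo's own genome is switched on. This window is also known for transcription from places that are silent in most tissues, among them long terminal repeats of retroviruses, satellite repeats and young gene families such as Zscan4 and the Oog and Pramel genes. Many transcripts first seen in oocyte or 2-cell cDNA still have no function assigned, and their symbols are placeholders.

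In GENCODE M21 (GRCm38) all 150 symbols were found, on 20 chromosomes. Long intergenic RNAs (lincRNA) made up 56 (37.3%), against 14.5% of the 901 other Gm and Rik rows at the same minimum level that were found. Pseudogenes made up 29 (19.3%, against 15.2%) and protein-coding genes 27 (18%, against 25.0%). Antisense RNAs made up 17 (11.3%, against 26.0%), and the rest were 11 processed transcripts and 10 entries to be experimentally tested. A named gene overlapped the gene body of 42 (28%, against 53.9%). The median of the longest transcripts was 1682 bases (1644 in the others). Chromosome 6 held 22 of the 150 (14.7%, against 5.55%). These are counts of annotation entries, and no test was made on them.

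The sequences that recur among the 150 are shown first, since several groups below are defined by them. RefSeq promoters, 250 bases before to 50 bases after a start (GRCm38.p6), were given for 52 of the 150. The transcript at rank 1, Gm1965 (chr6:89140744-89141043, plus strand), and its neighbour Gm839 (chr6:89216130-89216429, minus strand) have these promoters, with a TATAA box on either strand in capitals where there is one.
Gm1965: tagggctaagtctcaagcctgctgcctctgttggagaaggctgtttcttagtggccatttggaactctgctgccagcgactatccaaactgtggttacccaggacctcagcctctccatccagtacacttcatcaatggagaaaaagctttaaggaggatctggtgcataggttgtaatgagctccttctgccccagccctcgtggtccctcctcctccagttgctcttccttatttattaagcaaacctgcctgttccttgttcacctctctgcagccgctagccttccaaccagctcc
Gm839: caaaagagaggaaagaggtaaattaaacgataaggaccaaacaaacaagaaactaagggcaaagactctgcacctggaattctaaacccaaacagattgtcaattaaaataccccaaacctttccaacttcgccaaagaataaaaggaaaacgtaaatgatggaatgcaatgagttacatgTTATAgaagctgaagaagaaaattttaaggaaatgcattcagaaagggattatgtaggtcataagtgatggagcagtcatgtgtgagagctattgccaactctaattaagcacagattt
The letters TATAA, searched on both strands, stood in 24 of the 62 promoters of the 150, in 15.8% of 355 promoters of the other Gm and Rik rows and in 24.9% of all 32851. The Dux motif was in 0 of the 62 and in 0.207% of all. The Obox and Otx type motif GGATTA was in 5 of the 62 and in 7.06% of all.

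The promoters of 3 lincRNAs that start on different chromosomes share most of their length. Gm3143 (chr3:34716613-34716912, minus strand), Gm19299 (chr9:67133311-67133610, plus strand) and Gm17751 (chr1:76488883-76489182, plus strand) are printed with the shared stretch in capitals.
Gm3143: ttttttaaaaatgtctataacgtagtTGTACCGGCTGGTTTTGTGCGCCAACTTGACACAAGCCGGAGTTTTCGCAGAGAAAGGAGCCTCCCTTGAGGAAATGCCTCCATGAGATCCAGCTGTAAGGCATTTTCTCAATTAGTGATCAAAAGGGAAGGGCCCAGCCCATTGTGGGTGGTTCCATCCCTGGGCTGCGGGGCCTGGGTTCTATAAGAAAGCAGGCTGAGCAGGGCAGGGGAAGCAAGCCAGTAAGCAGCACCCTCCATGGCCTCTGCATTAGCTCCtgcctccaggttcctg
Gm19299: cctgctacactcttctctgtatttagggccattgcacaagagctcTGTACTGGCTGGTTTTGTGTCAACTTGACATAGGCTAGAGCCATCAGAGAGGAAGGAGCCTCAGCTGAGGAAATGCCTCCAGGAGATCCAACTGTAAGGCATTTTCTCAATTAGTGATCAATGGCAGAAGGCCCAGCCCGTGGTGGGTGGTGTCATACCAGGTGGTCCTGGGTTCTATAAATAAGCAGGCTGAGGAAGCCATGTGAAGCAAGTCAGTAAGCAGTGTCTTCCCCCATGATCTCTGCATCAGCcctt
Gm17751: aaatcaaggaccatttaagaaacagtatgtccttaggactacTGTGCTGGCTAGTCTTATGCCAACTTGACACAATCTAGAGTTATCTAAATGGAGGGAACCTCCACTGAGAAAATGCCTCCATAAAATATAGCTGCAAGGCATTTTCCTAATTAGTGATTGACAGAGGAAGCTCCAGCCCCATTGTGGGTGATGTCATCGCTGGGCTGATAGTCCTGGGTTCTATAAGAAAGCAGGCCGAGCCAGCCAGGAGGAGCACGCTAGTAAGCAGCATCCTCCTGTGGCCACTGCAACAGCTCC
Against Gm3143 the identity was 78.7% over 258 bases in Gm19299 and 77.3% over 260 bases in Gm17751. Each stretch in capitals holds the letters TATAA. A promoter of 55 other genes in the table aligned to that of Gm3143 at 75% identity or more over at least 60 bases, and 3 of these genes were among the 150, the third being E330012B07Rik. No repeat annotation was used here to name the stretch.

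Other sequences recur within a transcript. Of 142 transcripts with 450 bases or more, 11 matched themselves at 45% or more of their positions when moved along. In 8 of them the best shift was 84 or 168 bases, the length of 1 or 2 C2H2 zinc fingers, the DNA-binding units of the KRAB zinc-finger proteins that silence retroviruses. Of these, Gm7145 (chromosome 1) had the highest identity. Its best pair of adjacent 84-base units, bases 760 to 843 and 844 to 927 of the GENCODE transcript, is identical at 74 positions, which are in capitals.
Gm7145 first unit: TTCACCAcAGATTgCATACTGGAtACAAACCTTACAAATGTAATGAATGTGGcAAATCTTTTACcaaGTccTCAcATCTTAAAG
Gm7145 second unit: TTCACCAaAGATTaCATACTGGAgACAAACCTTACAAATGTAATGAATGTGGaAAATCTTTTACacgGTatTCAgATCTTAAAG
In the other 3, Gm11168, Gm10718 and Gm21738, the shift was 234 or 237 bases. The mouse major satellite, the repeat of pericentromeric DNA that is transcribed in 2-cell embryos, is built from units of 234 bases. In Gm10718 (chromosome 9, 3023547 to 3025218 of GRCm38) the best adjacent pair, bases 66 to 299 and 300 to 533, is identical at 95.7% of its positions, in capitals.
Gm10718 first unit: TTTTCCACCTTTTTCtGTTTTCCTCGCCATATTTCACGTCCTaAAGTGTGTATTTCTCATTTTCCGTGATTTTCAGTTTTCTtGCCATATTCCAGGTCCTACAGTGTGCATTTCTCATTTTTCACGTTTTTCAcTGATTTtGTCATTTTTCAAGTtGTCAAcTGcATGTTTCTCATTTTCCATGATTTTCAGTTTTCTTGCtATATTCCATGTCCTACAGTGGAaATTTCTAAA
Gm10718 second unit: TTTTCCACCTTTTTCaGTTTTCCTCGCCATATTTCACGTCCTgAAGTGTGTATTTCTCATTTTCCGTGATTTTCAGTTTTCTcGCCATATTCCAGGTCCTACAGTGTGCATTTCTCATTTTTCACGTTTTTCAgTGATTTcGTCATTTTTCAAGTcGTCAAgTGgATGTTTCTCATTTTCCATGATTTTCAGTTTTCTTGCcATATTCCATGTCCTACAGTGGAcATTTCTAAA

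Each deposited value is the number of reads on a gene over a factor that scales its library, and transcript length does not enter it, so that levels are compared between libraries and not between genes. A library had 836010 to 8551674 reads, of which 54.0% to 89.3% were on the 2 ribosomal RNA rows CT010467.1 and Gm42418, and 1 read was worth 0.266 to 3.89 units. Light 2-cell library 16 was the shallowest, and Gm42418 reads divided by CT010467.1 reads had a median of 2.80 (2.34 to 4.03) in control and 1.65 (1.58 to 1.77) in light 2-cell libraries, so that exposure and a difference between library preparations cannot be told apart in light against control at this stage. At the 4-cell stage the ratio was 1.61 to 4.55 in control, lowest in control library 3, and 1.43 to 1.63 in light. Markers of cumulus cells and sperm were low at the 2-cell stage: cumulus cell genes summed to at most 64.5 units and sperm genes to at most 10.4 in a 2-cell library. Markers of later lineages were read as well. Inner cell mass genes summed to 188.0 to 712.4 in control 2-cell libraries (274.8 to 1571 in control blastocysts). Primitive endoderm genes summed to 188.5 to 498.4 (42.4 to 479.7), and trophectoderm genes to 60.7 to 181.4 (461.8 to 6188).

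Summed over the 150, the level was far higher in every 2-cell library than in any later one. In control 2-cell libraries the lowest sum was 13801, the median 19872 and the highest 28477 units. In light 2-cell libraries the sum was 4562, 8297 and 16439. The highest sum among the 54 libraries of later stages was 800.0. From 4-cell embryos to blastocysts the control medians were 283.6, 368.0, 144.3 and 127.0, and the light medians 568.2, 186.6, 124.6 and 76.9. In light the mean at the 4-cell stage was 5.94% of the 2-cell mean, and in control 1.46%. Light 2-cell libraries 15 and 16 stood above the other 4, with 16439 and 13959 against 4562 to 8901 units.

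**Figure D1:**
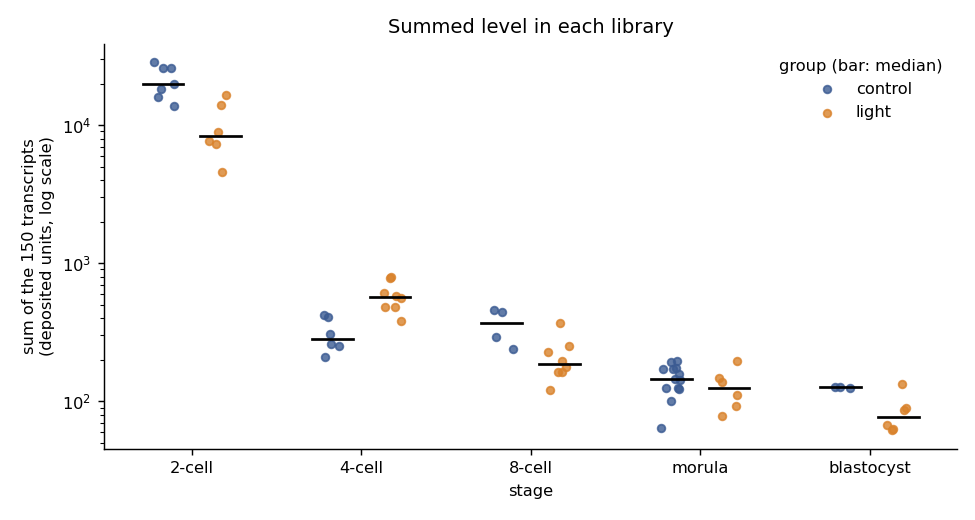
Sum of the 150 transcripts in each library (deposited units, log axis) by stage, with control libraries in blue, light libraries in orange and a black bar at the median of each group. Every 2-cell library lies at or above 4562 units and every later library at or below 800.0.

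Most of the 150 were read in every 2-cell library. Between 144 and 150 of them had a value above 1 in a control 2-cell library and between 123 and 143 in a light one. In 4-cell libraries this was 27 to 43 in control and 46 to 66 in light. With every library thinned to 318176 reads outside the ribosomal rows, a read was left for 135 to 148 (control) and 111 to 134 (light) transcripts in 2-cell and for 26 to 41 and 36 to 61 in 4-cell libraries. The order of the groups was thus the same at equal depth.

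The deposited values, which do not take length into account, were very unequal within the 150. Control 2-cell means ran from 11.1 to 4389 units with a median of 43.2, 42 were at least 100 and 7 at least 500. Gm1965 alone held 20.7% of the control 2-cell sum, and the 5 highest held 41.2% in control and 28.0% in light. The median coefficient of variation over libraries was 0.531 in control and 0.824 in light 2-cell embryos. In 30 of the 150 a single light 2-cell library held more than the other 5 together, against 4 with such a library in control. In control, 79 had a mean under 1 at every later stage and 12 had at least 10 at some later stage, so the word restricted holds for these levels and not as an absence of reads. The later stage with the highest mean was the 4-cell stage for 66 in control and for 112 in light.

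**Figure D2:**
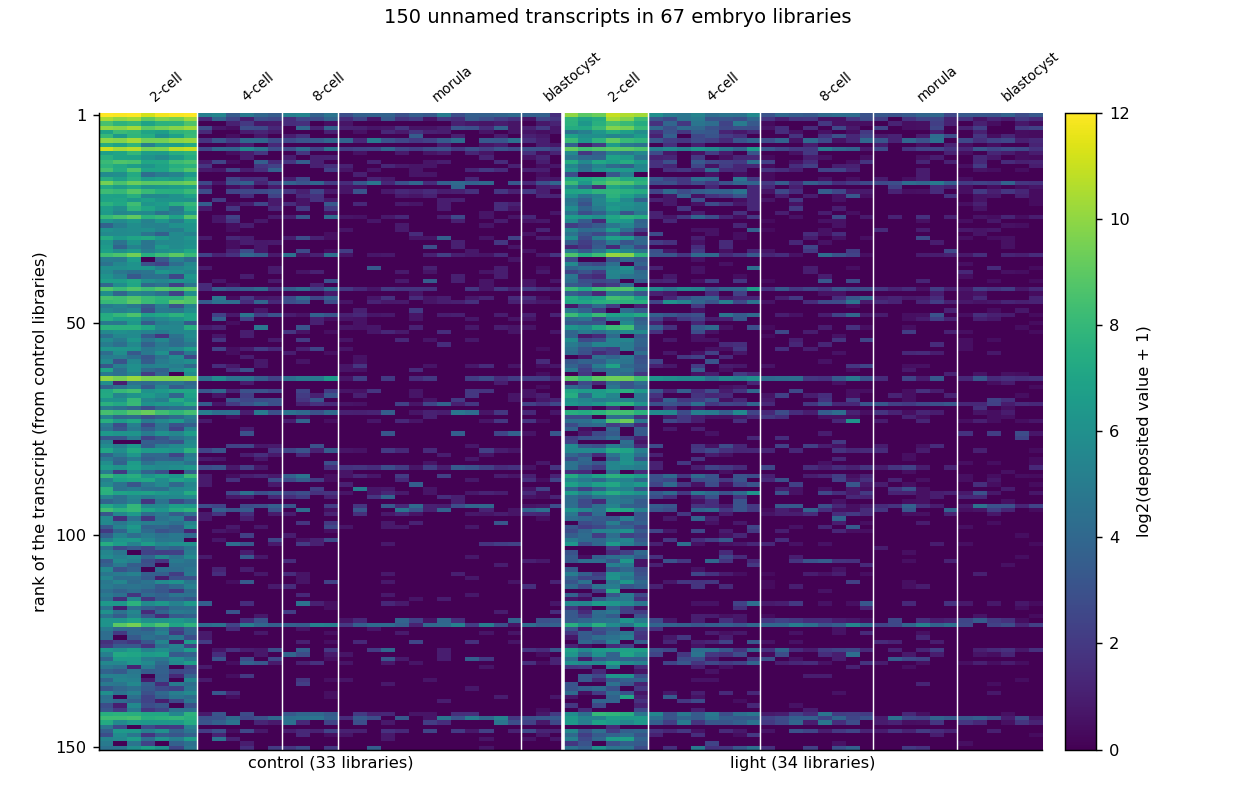
Heat map of log2(deposited value + 1) for the 150 transcripts (rows, by rank in control) in 67 libraries (columns, by group and stage). The bright blocks are the 7 control and 6 light 2-cell libraries, and rows that stay visible later include Gm1965 at the top and Gm10436 at rank 63.

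To ask whether the fall after the 2-cell stage is found in embryos that did not choose the transcripts, light 4-cell libraries were compared with light 2-cell libraries by limma over 20444 genes. All 150 were lower by the fit, and 125 of the 150 were called lower (a change of 2-fold or more with an adjusted p under 0.05), while 21.6% of all genes tested were called lower. None of the 150 was called higher by limma, edgeR or DESeq2, against 5.27%, 9.46% and 9.35% of all genes. At an unadjusted p none was higher either, against 9.23%, 15.2% and 13.6% of all genes in that order. The other Gm and Rik rows at the same minimum level gave 398 of 903 lower, and all genes at that level 3702 of 10044. The median change was -3.05 on the log2(value + 1) scale for the 150 and -0.37 for all genes tested. In 73 the lowest light 2-cell library lay above the highest light 4-cell library, which held for 9.44% of all genes. Without light libraries 15 and 16 the number called was 117, and the share of all genes in that set is not given here.

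**Figure D3:**
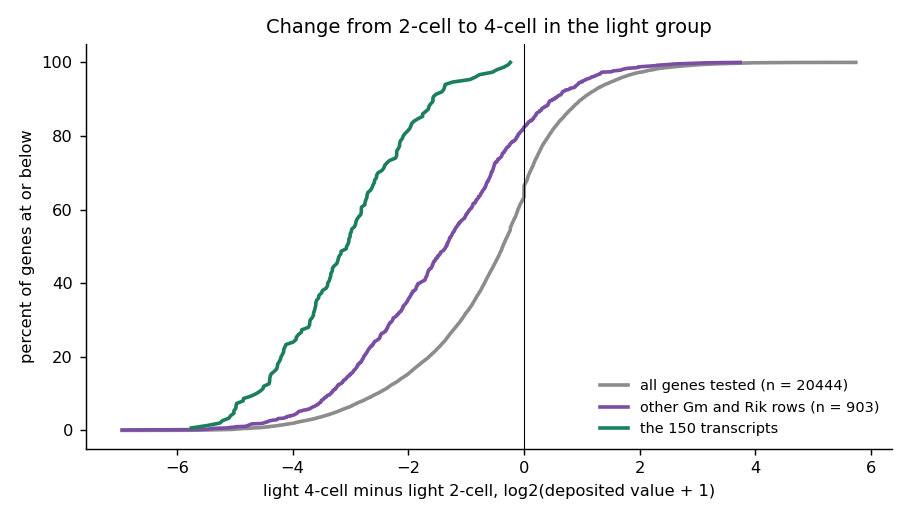
Cumulative distribution of the change from light 2-cell to light 4-cell libraries (log2 of the deposited value + 1, x axis) as a percent of genes (y axis) for the 150 transcripts, the 903 other Gm and Rik rows and all 20444 genes tested. The curve of the 150 lies wholly below 0, with a median of -3.05.

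The later light stages gave similar numbers. In 8-cell embryos 133 were called lower than in 2-cell embryos (30.8% of all genes), in morulae 126 (30.7%) and in blastocysts 130 (39.6%). Among all genes at the same minimum level in control 2-cell libraries, 52.2%, 53.0% and 66.5% were called lower, and among the other Gm and Rik rows 58.4%, 59.5% and 74.8%, so that these were nearer to the 150 than at the 4-cell stage. None of the 150 was called higher by limma, edgeR or DESeq2. Limma called 3.68%, 5.22% and 5.18% of all genes higher, and edgeR 10.2%, 12.4% and 17.2%. At an unadjusted p none of the 150 was higher either. There limma had 6.15%, 7.7% and 6.68% of all genes higher, edgeR 16%, 16.7% and 20.4%, and DESeq2 13.9%, 16.3% and 19.2%. The split over all genes depended on the scaling: DESeq2 called 17.4% lower and 9.35% higher in 4-cell, 18.1% and 10.1% in 8-cell embryos, 19.3% and 13.3% in morulae and 20.4% and 16.8% in blastocysts. Of the 150, 119 were called lower at all 4 later stages and 14 at none. The share of all genes called at all 4 stages is not given here, so nothing is read from these 2 counts. Between the light 4-cell and 8-cell stages 15 (10%) were called lower, where 5.58% of all genes and 10.3% of those at the same minimum control 2-cell level were. These genes were not matched to the 150 on their light 4-cell level. There the median of the means of the 150 was 1.02 units, and 15 were at 0 in every library, so many had little left to fall. Limma called 0 higher, where 0.249% of all genes were, and at an unadjusted p under 0.05 it had 3 higher (1.77% of all genes). DESeq2 called 8 lower and 1 higher, against 1.34% of all genes in each direction, and edgeR 4 and 0, against 0.646% and 0.543%.

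The transcripts of ranks 1, 4 and 6 lie together on chromosome 6. 4933427D06Rik (88950683 to 89110031, plus strand), Gm1965 (89140994 to 89147388, plus strand) and Gm839 (89211165 to 89216237, minus strand) are lincRNAs of unknown function within 265555 bases of GRCm38. Gm1965 had 2372, 3849 and 6078 units (lowest, median and highest) in control 2-cell libraries and 486.4, 1163 and 1957 in light ones. In 4-cell libraries it had 9.88 to 44.6 in control and 19.3 to 62.9 in light. Every light 2-cell library thus lay under every control one, and every 4-cell library under both. From light 2-cell to light 4-cell libraries it fell by 4.98 on the log2 scale (standard error 0.35, adjusted p = 1.14e-06 from limma).

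Gm839 followed a like course. It had 499.8, 911.9 and 1275 units in control 2-cell libraries and 147.0, 273.5 and 839.2 in light ones, with libraries 15 and 16 the highest. Among 4-cell libraries none passed 17.0. In light it fell by 5.01 (0.43, adjusted p = 4.9e-06 from limma). 4933427D06Rik had 62.5, 169.5 and 278.0 units in control and 41.7, 60.1 and 113.5 in light 2-cell libraries, where libraries 15 and 16 were the lowest, in contrast to its neighbours. It fell by 4.26 (0.59, adjusted p = 0.000144 from limma) to a light 4-cell mean of 3.88 ± 4.12 (SD, n = 8). The provisional genes between them in the table, Gm6507 and Gm44203, had control 2-cell means of 98.4 and 8.66 and are not among the 150.

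**Figure D4:**
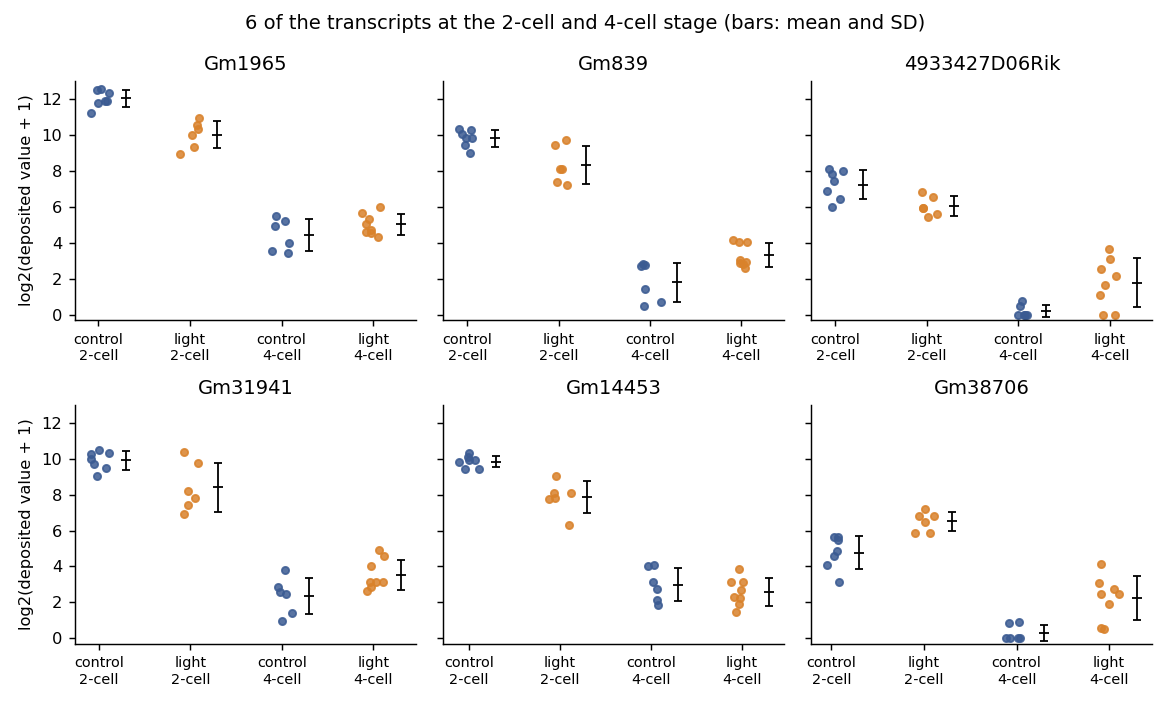
log2(deposited value + 1) of 6 transcripts in single libraries at the 2-cell and 4-cell stage (control blue, light orange), with mean and SD as black bars. Both 2-cell groups lie above both 4-cell groups in every panel but that of Gm38706, where control 2-cell and light 4-cell libraries overlap and light 2-cell libraries (57.8 to 143.5 units) lie above control ones (7.83 to 48.9).

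Processed copies of named genes formed a further group. The annotation lists 23 of the 150 as processed pseudogenes, mRNAs copied back into the genome, and for 21 a named gene matched at least 50% of the transcript, at 76.8% to 97.0% identity. In light embryos the copies kept a median of 5.75% of their 2-cell mean at the 4-cell stage and at most 14.1%, and their sources a median of 45.6%, counted once for each copy. The source of 9 copies kept at least 50% and that of 12 kept less. The copies were picked for low later control levels and their sources were not. A lower share in the copies is thus favoured by the choice, and nothing is read from it. Of the 21 copies, 19 were called lower at the light 4-cell stage, against 125 of the 150 and 21.6% of all genes tested.

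Gm31941 (chromosome 7, 46975366 to 46975715, plus strand), rank 2, is a single-exon copy of Elob, an elongin subunit, at 83.6% identity. It had 525.9, 1022 and 1423 units in control 2-cell libraries and 120.1, 254.2 and 1303 in light ones, with light libraries 15 and 16 (1303 and 854.9) apart from the other 4. All 4-cell libraries were at or under 28.9. It fell by 4.85 in light (0.56, adjusted p = 4.16e-05 from limma). Elob itself had means of 62.5 in control 2-cell and 217.6 in control 4-cell libraries, 114.4 and 81.8 in light. Gm31941 lies opposite to C86187, which had a control 2-cell mean of 6245 and a control 4-cell mean of 40.2 units. Since SMART-seq2 does not mark the strand, reads of Gm31941 and C86187 cannot be told apart where they overlap.

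Gm19224 (chromosome 19, 11703309 to 11704101, minus strand), a copy of Galnt3, a mucin-type glycosyltransferase gene, at 89.1% identity, had 72.2, 149.05 and 213.5 units in control and 11.7, 28.4 and 43.4 in light 2-cell libraries. The groups did not overlap. It fell by 3.35 in light (0.47, adjusted p = 0.000161 from limma), and the Galnt3 mean was 4.68 units in control 2-cell libraries. It lies opposite to Oosp3, an oocyte-secreted protein gene, with means of 396.0 in control and 79.3 in light 2-cell libraries, from which its reads cannot be told apart where they overlap. The other sources named here were chosen after their values were seen. Gm9403, a copy of the chaperone gene Hsp90ab1, had means of 24.4 in light 2-cell and 1.40 in light 4-cell libraries, while Hsp90ab1 had 675.4 and 3003. Gm5946, 97.0% identical to the Polycomb gene Bmi1, had 175.8 and 11.0, and Bmi1 969.2 and 80.2, so here copy and source both were lower.

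A further 3 transcripts were related to Gapdh, a glycolytic enzyme gene. Gm9621 had 63.5, 83.5 and 128.2 units in control and 11.6, 33.0 and 130.1 in light 2-cell libraries, and fell by 4.20 in light (0.62, adjusted p = 0.000239 from limma). Gm5177 had 34.0, 60.5 and 71.3 in control and 6.24, 19.3 and 66.1 in light, and fell by 3.69 (0.73, adjusted p = 0.00191 from limma). The third, Gm12641, had a light 2-cell mean of 10.5 and was not called. Gapdh had means of 71.0 and 173.2 at the 2-cell and 4-cell stage in control and 116.0 and 52.9 in light.

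Grouping the longest transcripts at 75% identity over at least 50% of the shorter one gave 9 families with 32 of the 150, the Gapdh-related ones among them. The largest was made of 8 zinc-finger transcripts related to Zfp616 and Zfp735, the same 8 that repeat at 84 or 168 bases. All 8 were called lower at the light 4-cell stage, against 125 of the 150 and 21.6% of all genes tested. Their ratios of light to control 2-cell mean ran from 0.516 to 3.10 with a median of 0.815. Gm44527 (rank 3) had 123.4, 217.8 and 407.6 units in control and 81.3, 198.7 and 380.4 in light 2-cell libraries, overlapping throughout. At the 4-cell stage it had at most 2.93 in control and 2.25 to 30.7 in light. It fell by 4.21 in light (0.56, adjusted p = 0.000111 from limma). Gm44133 had 94.4, 114.9 and 193.1 units in control and 126.8, 155.5 and 256.9 in light, and fell by 4.51 (0.63, adjusted p = 0.000155 from limma).

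Gm38706 (chromosome 6, 130483189 to 130503581), an unprocessed pseudogene of this family, was the one transcript of the 150 with every light 2-cell library above every control one. It had 7.83, 27.8 and 48.9 units in control and 57.8, 99.5 and 143.5 in light, a ratio of means of 3.10. Its fall to the light 4-cell stage was 4.26 (0.53, adjusted p = 7.29e-05 from limma). 4 of the 8, Gm44527, Gm44133, Gm5581 and Gm27047, also lie on chromosome 6, and pairs in the family were up to 94.4% identical, so that reads may have been split between them.

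Oog genes are a family first found in oocytes, of the leucine-rich Pramel type, and 5 of the 150 belong to it. All 5 were called lower at the light 4-cell stage, against 125 of the 150 and 21.6% of all genes tested. Their ratios of light to control 2-cell mean ran from 0.415 to 0.796. Gm10436 (now Pramel51 in RefSeq) had the highest light 4-cell mean of all 150, 50.1 ± 15.8 units (SD, n = 8). It had 742.1, 817.9 and 1152 units in control 2-cell libraries and 260.5, 480.9 and 660.6 in light ones, without overlap. It fell by 3.22 in light (0.29, adjusted p = 5.74e-06 from limma). Gm2042 had 281.4, 413.4 and 493.9 units in control and 139.1, 271.8 and 408.0 in light, and fell by 3.07 (0.49, adjusted p = 0.000407 from limma). Both match Oog1 at 95% or more, as does Gm13023 of the same family. Gm13103 matches Gm13088 at this level, and Gm13084 matches Oog2 and Gm7201. Reads of all these copies cannot be assigned with certainty.

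The other 3 stand in a row on chromosome 4 within 64286 bases, between 143789352 and 143853637. Gm13023 (Pramel25) had 196.7, 284.5 and 496.6 units in control and 132.1, 186.3 and 208.6 in light 2-cell libraries. It fell by 3.28 in light (0.53, adjusted p = 0.000476 from limma). Gm13084 (Pramel26) had 61.5, 114.7 and 196.8 in control and 42.1, 98.0 and 173.5 in light, and fell by 2.55 (0.55, adjusted p = 0.00318 from limma). Gm13103 (Pramel27), rank 11, had 48.7, 118.7 and 191.6 in control and 13.4, 24.2 and 116.8 in light, and fell by 4.17 (0.55, adjusted p = 0.000112 from limma). Gm6205, Gm3259 (Pramel47) and Gm6367, relatives of C87414 on chromosome 5 that are 98.5% to 99.6% identical, had control 2-cell means of 26.1, 22.7 and 13.9. They were all called lower at the light 4-cell stage, against 125 of the 150 and 21.6% of all genes tested. Their reads may be shared. Gm6205 had 12.2, 26.2 and 47.0 units in control and 12.5, 31.0 and 41.9 in light 2-cell libraries. Gm3259 had 9.19, 21.9 and 36.6 in control and 4.95, 14.0 and 33.4 in light.

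The satellite-type transcripts varied over the 2-cell libraries in another order than Gm1965. Gm21738 (chromosome 14) had 71.8, 235.6 and 726.7 units in control and 23.3, 81.8 and 192.0 in light. Gm10718 had 11.5, 33.9 and 85.5 in control and 3.34, 12.6 and 45.5 in light. In control, library 10 held the lowest value of both and the highest value of Gm1965. In light, library 10 held the highest value of both. Gm21738 fell by 2.75 (0.41, adjusted p = 0.000239 from limma) and Gm10718 by 2.81 (0.53, adjusted p = 0.00145 from limma) from the light 2-cell to the light 4-cell stage. Gm21738 was still read later, at means of 23.5 and 20.5 units at the control and light 8-cell stage. These 2 and Gm11168, with a control 2-cell mean of 30.8, are 94.3% to 96.1% identical, so their values may be shares of the same reads.

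Of the lincRNAs with the shared promoter stretch, Gm3143 (rank 14) had 123.2, 240.0 and 432.5 units in control and 20.6, 68.1 and 88.4 in light 2-cell libraries, without overlap. It fell by 4.41 in light (0.59, adjusted p = 0.000124 from limma). Gm17751 (rank 12) had 136.5, 302.7 and 420.0 units in control and 49.5, 119.6 and 171.0 in light, overlapping in part. It fell by 4.37 (0.57, adjusted p = 9.80e-05 from limma). Gm19299 had 47.8, 110.4 and 182.7 units in control and 23.1, 55.6 and 208.6 in light, where library 15 passed every control library. Its light to control ratio was 0.829, against 0.242 for Gm3143 and 0.411 for Gm17751, and it fell by 4.32 (0.64, adjusted p = 0.000235 from limma). E330012B07Rik (rank 5, chromosome 6) had 105.7, 224.1 and 284.5 in control and 21.0, 68.6 and 165.2 in light, and fell by 3.90 (0.56, adjusted p = 0.000199 from limma).

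Gm14453 (chromosome 2, 173025685 to 173034580, minus strand) lies opposite to Rbm38, an RNA-binding protein gene. It had 676.3, 952.7 and 1273 units in control and 77.2, 248.1 and 527.2 in light 2-cell libraries, without overlap, and fell by 5.26 in light (0.44, adjusted p = 3.53e-06 from limma). Gm20490, also opposite to Rbm38 and with Gm14453 within a stretch of 12078 bases, had control and light means of 556.8 and 289.7. Rbm38 had 3708 and 1582, so that reads of the 3 genes may be shared where they overlap.

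Protein-coding entries outside these families were led by E330034G19Rik (chromosome 14, rank 9). It had 729.3, 1648 and 2080 units in control and 320.4, 442.2 and 545.8 in light 2-cell libraries, without overlap. It fell by 3.39 in light (0.36, adjusted p = 2.04e-05 from limma) to a mean of 46.6 ± 25.7 (SD, n = 8), the second highest light 4-cell level. E330009J07Rik, now Dennd11 in RefSeq, had 231.7, 326.2 and 593.7 in control and 162.7, 202.9 and 326.4 in light, and fell by 3.31 (0.55, adjusted p = 0.000548 from limma). 7420426K07Rik had 93.7, 129.2 and 242.7 units in control and 2.89, 31.1 and 49.0 in light, without overlap, and fell by 3.16 (0.71, adjusted p = 0.0044 from limma). Gm8300, an Eif1a-like gene, had 26.2, 83.7 and 184.3 in control and 19.6, 31.2 and 621.8 in light, where libraries 15 and 16 (390.4 and 621.8) set a mean of 185.8.

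Entries that the annotation marks as still to be tested (TEC) formed 2 families of 3 at 93.8% to 96.8% identity. Gm44792 had 69.5, 139.6 and 324.9 units in control and 86.2, 113.9 and 186.5 in light 2-cell libraries, and Gm38383 had 44.8, 174.5 and 205.1 in control and 19.8, 109.2 and 314.8 in light. They fell by 4.50 (0.49, adjusted p = 2.58e-05 from limma) and 4.63 (0.84, adjusted p = 0.00107 from limma). Gm36976 had 48.0, 182.2 and 215.2 in control and 19.0, 115.8 and 253.1 in light. Its fall of 2.15 (0.66, adjusted p = 0.0257 from limma) was not called without light 2-cell library 14, 15 or 16 (fall of 1.83, 1.85 and 1.93). Gm45410 had 3.57, 25.0 and 37.8 in control and 3.35, 22.2 and 63.4 in light, and fell by 3.48 (0.67, adjusted p = 0.00155 from limma).

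The 25 transcripts that were not called lower at the light 4-cell stage include those hardly read in light at any stage. Gm37165, Gm45490 and Gm815 had 5.21, 12.7 and 10.4 units as control 2-cell medians, and at least 4 of the 6 light 2-cell libraries of each were at 0, which left little to fall. Their light changes were -0.24 (adjusted p = 0.385 from limma), -0.35 (adjusted p = 0.385 from limma) and -0.27 (adjusted p = 0.366 from limma). Gm43303 (rank 15) had 18.3, 55.2 and 155.3 units in control, while 3 of 6 light libraries were at 0 and the highest was 35.0, with a change of -1.75 (0.74, adjusted p = 0.0928 from limma). Gm4847 had 3.17, 12.5 and 19.8 in control, and in light 160.2 in library 15, 3.35 in library 14 and 0 in the other 4. Gm48306, last in rank, had 5.67, 22.5 and 68.7 in light 2-cell and up to 29.4 in light 4-cell libraries, a change of -2.15 (0.83, adjusted p = 0.0685 from limma). Gm44113, next to last in rank, had 0, 7.05 and 11.7 in light and fell by 2.20 (0.58, adjusted p = 0.0111 from limma). Gm11381 had 0.826, 16.2 and 95.1 units in light 2-cell and at most 2.20 in light 4-cell libraries, and fell by 3.42 (0.74, adjusted p = 0.0036 from limma).

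At the 2-cell stage light libraries are compared with the control libraries that chose the transcripts, so the values are a description. The light mean was under the control mean for 134 of the 150 and over it for 16, with a median ratio of 0.454. The median ratio was 0.916 for the other Gm and Rik rows and 0.925 for all rows at the same minimum level. By limma's thresholds 30 were lower and 1, Gm38706, was higher in light, where 4.03% of all genes were lower and 3.12% higher (7.15% either). Every light library lay under every control library for 16 (2.26% of all genes) and above for 1 (1.5% of all genes). Without light libraries 15 and 16, 55 were lower, and the share of all genes in that set is not given here. Since the transcripts were picked for high control 2-cell values, a lower light value is favoured by the choice, and nothing is read from these counts. At the 4-cell stage the comparison is a description too: the rule took transcripts with low control 4-cell means, so a higher light value is favoured by the choice. Limma called 0 of the 150, where 0.132% of all genes were called, 0.0245% lower and 0.108% higher. At an unadjusted p under 0.05 there were 18 higher and 0 lower (7.35% and 6.41% of all genes), DESeq2 called 7 higher (1.88% of all genes) and edgeR 0 (0.455%), and without control 4-cell library 3 limma called 2 higher. The light 4-cell mean was above the control mean for 97 and under it for 42, and nothing is read from these counts.

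The 150 were set beside 2 lists of named genes. Of 30 oocyte maternal genes 22 were called lower at the light 4-cell stage and 1 higher, and of 30 genes known to be expressed transiently at the 2-cell stage 21 lower and 1 higher, against 21.6% and 5.27% of all genes. AA792892 of the transient list matches Gm6205, Gm3259 and Gm6367 at 95% or more, so its reads may be shared with them. In the maternal list Tcl1, an Akt cofactor gene, had control 2-cell, light 2-cell and light 4-cell means of 3496, 648.9 and 16.9, and Bmp15, an oocyte growth factor, 2506, 537.8 and 36.8. Khdc3 rose by 2.23 (0.62, adjusted p = 0.0149 from limma). In the transient list Tmem92 had 230.9, 192.6 and 21.3, and Sp110, an interferon-induced gene, rose by 1.25 (0.27, adjusted p = 0.00318 from limma). At the 2-cell stage the maternal sum had a median of 14573 in control and 6066 in light, and the transient sum 2218 and 2330. The maternal sum rests largely on Tcl1, Bmp15, Btg4 (control 2-cell mean 2184, light 924.9) and Bcl2l10 (1705 and 200.8). The mean maternal sum in control 2-cell libraries was 15160.5. By the fit 21 of the 30 maternal genes were lower in light, and others, such as Ccnb1 (377.7 and 1053), were higher.

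Over single 2-cell libraries the sum of the 150 went with the maternal sum, and in light libraries with the transient sum as well. In control libraries Pearson's r of the 2 sums was 0.970 (Spearman's rho 0.857, n = 7) and in light libraries 0.975 (0.943, n = 6). As a percent of all values outside the ribosomal rows r was 0.977 in control and 0.968 in light. On that scale r with the transient sum was -0.0471 in control and 0.876 in light. With the transient sum r was 0.286 (0.429, n = 7) in control and 0.921 (0.943, n = 6) in light, where libraries 15 and 16 were high in all 3 sums. The sums share each library's size factor and total, and these are descriptions without a test. For each transcript, over 13 libraries taken as deviations from their group mean on a log2 scale of shares of each library, 110 correlated more with the maternal and 40 more with the transient sum, with medians of 0.509 and 0.286. The same count over all genes is not given here, so nothing is read from the 110 and the 40. Gm1965 had 0.895 with the maternal and 0.368 with the transient sum, and Gm9621 0.410 and 0.920. The 3 satellite-type transcripts were the lowest of all 150 against the maternal sum, with -0.525 for Gm21738 and -0.430 for Gm10718. Other transcripts were negative against it too, among them Gm48306 (-0.348) and Gm815 (-0.335). Gm8300, for which light libraries 15 and 16 stood out, had 0.588 and 0.717.

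**Figure D5:**
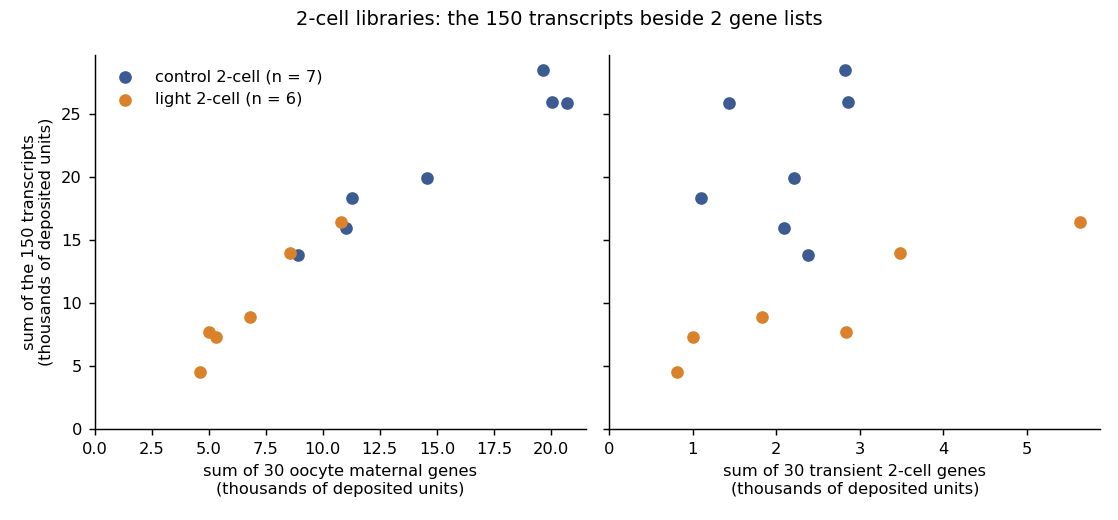
Sum of the 150 transcripts (y axis) against the sum of 30 oocyte maternal genes (left) and of 30 transient 2-cell genes (right), in deposited units scaled as the axes state, for 7 control (blue) and 6 light (orange) 2-cell libraries. On the left the points of both groups lie along one band (r = 0.970 and 0.975). On the right the control points do not order (r = 0.286), while r was 0.921 for the light points.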

How the data were processed

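RNA was measured in 67 single-cell libraries (SMART-seq2, paired-end reads of 150 bases). The submitters' processing notes name HISAT2, HTSeq 0.9.1 and mm9. The methods speak of RPKM, but the deposited table holds signal values that the authors made by dividing reads per gene by a factor of each library. The values gave back whole reads within 0.01 for at least 99.97% of genes in each library. The depth was 836010 to 8551674 reads, and counts of reads cover counting error only.

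The deposited values were tested as log2(value + 1) with limma 3.58.1 in R 4.3.3 (lmFit, eBayes with trend, Benjamini-Hochberg adjustment over 20444 genes that passed 1 unit in 3 or more control libraries). A call needs a 2-fold change and an adjusted p under 0.05. A fold change on this scale understates the change of low genes. In data simulated for light 2-cell against 4-cell libraries, 49% of 200 genes changed 4-fold were recovered over 20444 genes, with 7 false calls, and 28% for light 2-cell against blastocyst libraries, with 6. edgeR 4.0.16 and DESeq2 1.42.0 on the recovered reads, other scalings, filters and pseudocounts, a replicate block and leaving out each library were alternatives. The members and lists were chosen with earlier results of these data known.

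Named were ranks 1 to 15, 149 and 150 and those just outside, the 5 highest in control 2-cell and in light 4-cell libraries, the 3 smallest falls among those not called, the 2 highest of each family or run of at least 3, and the 3 highest and lowest light to control ratios. Other members were named for a sequence or an overlap after their values were seen. Families were to be drawn from proteins, which were not used here, and were drawn from GENCODE M21 transcripts with BLAST 2.17.0 instead. Coordinates are of GRCm38, not of mm9, and were not used to join the values, which were joined by symbol.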

Additional observations from a re-analysis of the deposited data

Results flagged for a closer look

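Of 86 groups of values of named transcripts with 4 to 10 libraries, 10 had a library whose gap to its nearest neighbour was above Dixon's 95% critical value, and chance flags about 1 in 20. Light 2-cell library 15 stood above the other 5 in Gm11381 (95.1 units), Gm9621 (130.1), Gm4847 (160.2), Gm45490 (3.34) and Gm37165 (1.67). In the last of these and in Gm45490 the other 5 light libraries were at 0, so that 1 read and 2 reads set the flag. Light 2-cell library 16 stood above the others in Gm43303 (35.0), and light 2-cell library 14 in Gm48306 (68.7) and Gm815 (1.68), the latter being 1 read. In control 2-cell embryos library 12 stood above the others in Gm815 (26.1), and library 8 stood below the others in Gm36976 (48.0).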

How the results depend on the processing

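Values are percents of the 150 transcripts called. The fall from the light 2-cell stage kept its direction and stayed within 1.5 times the reported number under every alternative run. With each library left out in turn it was 78% to 86% at the 4-cell, 85.3% to 90% at the 8-cell, 82.7% to 88.7% at the morula and 84.7% to 90% at the blastocyst stage. From the light 4-cell to the 8-cell stage 10% were called, 6.67% to 10% with each library left out, 2.67% with median ratio scaling and with edgeR, 3.33% with scaling to the reads outside the ribosomal rows, 5.33% with DESeq2 and 16% among the first 75 ranks. The cause was not tested. In light against control 2-cell libraries 20.7% were called, 14% to 27.3% with each library left out, 50% with 1 fit over all libraries, 36.7% with DESeq2 and 37.3% without light libraries 15 and 16, an alternative chosen after seeing the data. DESeq2 called 6.6% of all genes lower and 6.9% higher in these 2-cell libraries. For the single fit and the set without libraries 15 and 16 the share of all genes is not given here. At the 4-cell stage 0 were called, 0% to 1.33% with each library left out (the highest without control library 3), 0.667% with the filter on the libraries compared, 4% with 1 fit over all libraries and 4.67% with DESeq2.

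Scaled to the reads outside the ribosomal rows, the summed level was 1.89%, 3.52%, 1.27% and 1.25% of the control 2-cell level in control 4-cell and 8-cell embryos, morulae and blastocysts, and 7.65%, 3.96%, 2.62% and 2.83% of the light 2-cell level in light. The median over libraries gave 0.639% for control blastocysts, and leaving out control 4-cell library 3 gave 1.51% at the 4-cell stage. The replicate numbers did not pair the libraries: deviations of same-numbered libraries correlated at -0.0661 to 0.0709. With the replicate number as a block 84.7%, 88.7% and 84% fell to the 4-cell, 8-cell and morula stage, 9.33% from the 4-cell to the 8-cell stage, 18% differed between light and control in 2-cell and 0% in 4-cell libraries. No such fit was possible for light blastocysts, which share 1 number with light 2-cell libraries. Of 971 recomputed values of 39 named transcripts, 949 kept their direction and side of the threshold, 9 were no longer called, 13 became called and 0 reversed.

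Where 1 read is worth up to 3.89 units, transcripts near 1 unit cannot be told from 0. Reads of near-identical copies, found for 23 of the 150, and of opposite strands may be shared.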

Other observations

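Among the classes of the annotation, 43 of 56 lincRNAs, 16 of 17 antisense RNAs, 22 of 27 protein-coding genes, 27 of 29 pseudogenes, 10 of 11 processed transcripts and 7 of 10 entries still to be tested were called lower at the light 4-cell stage by limma, against 21.6% of all genes tested and 36.9% of those at the same minimum level. The median ratio of light to control 2-cell mean was 0.385 for lincRNAs, 0.464 for antisense RNAs, 0.569 for protein-coding genes, 0.491 for pseudogenes, 0.343 for processed transcripts and 0.708 for entries still to be tested. Of the 150, 24 stood in 11 runs of neighbours at most 100 kb apart.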
